A study of Homo sapiens with 3 samples.

Results

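A set of 10 immediate early genes of the FOS, JUN, EGR and IER families was followed in HGC-27, an established line of human gastric cancer cells. The 10 genes, IER2, IER3, FOS, FOSB, FOSL1, FOSL2, JUN, JUNB, JUND and EGR1, were found by symbol among 50868 genes of the deposited table, and each had 1 entry. The set was chosen by a measured value, the level of IER2 in the YAP siRNA library against the others, so that contrast is a description and supports nothing. The study compared 3 cultures at passage 6, each harvested 48 h after siRNA transfection. One culture received a control siRNA. In another the siRNA targeted IRF3, which switches on interferon genes, and in the last it targeted YAP, a coactivator that Hippo kinases keep out of the nucleus. Transfection, passage and time were shared by all, and siRNA sequences and doses were not used here. Each condition is 1 library, so no value has a replicate check and no test across samples exists. Gene counts totalled 13949401 with control siRNA, 14941556 with IRF3 siRNA and 14385959 with YAP siRNA.

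Immediate early genes are transcribed within minutes of a growth factor or stress signal, without the need for new protein. MAP kinases act on factors already bound at their promoters, and their mRNAs are short-lived. FOS proteins pair with JUN proteins to form AP-1, which binds DNA through basic leucine zippers. JUN proteins can also pair with each other. EGR1 is a zinc finger activator switched on through SRF. AP-1 and the TEAD factors that carry YAP to DNA are known to share many enhancers in cancer cells.

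The labels were checked with the targeted genes and with markers. YAP1 stood at 5.89 FPKM (fragments per kilobase, scaled to library size) with control siRNA, 3.58 with IRF3 siRNA and 2.23 with YAP siRNA. IRF3 stood at 3.55, 2.90 and 3.86 FPKM. The ratio of depth-scaled YAP1 counts to control was 0.380 with YAP siRNA and 0.608 with IRF3 siRNA. For IRF3 with IRF3 siRNA it was 0.818 (0.732 to 0.915), so that library's label was checked only weakly, also because IRF3 shares exon sequence with BCL2L12. All 7 epithelial markers, EPCAM, CDH1 and keratins among them, were below 1 FPKM in the control, and 5 of 6 gastric epithelial markers had no counts there. Of 5 mesenchymal markers 2 were at or above 1 FPKM, VIM (511 in the control) and FN1 (9.33). CDH2 (0.0560), ZEB1 (0.491) and ZEB2 (0.361) were below it. These are deposited FPKM, which run low for genes with many transcript forms, as described below. In the control ZEB2 had 206 counts, ZEB1 137, KRT8 80, CLDN4 59 and CDH2 5, so a value below 1 FPKM does not mean absence. The summed level of 5 leukocyte markers was 0.943, 1.70 and 0.959 FPKM in the control, IRF3 siRNA and YAP siRNA libraries, and that of HBA1 and HBB was 7.41, 8.60 and 7.04. Their part in the values below was not tested.

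Promoter sequences show how differently these genes are built around their starts. RefSeq promoters (GRCh38.p14, the same build as hg38) were found for 8 of the 10 genes. The 30 bases from position -40 to -11 before the start are printed for 7 of them, 5′ to 3′ on the gene's strand, with matches to TATAAA or to CCGGAA (the ETS core, also as TTCCGG on the other strand) in capitals. GENCODE 29 annotates exons in some of these windows, over 30 bases each for FOS and JUN, 19 for FOSL2 and 13 (of STX10) for IER2, so those letters are also transcribed sequence in that annotation.
IER2, chr19:13150371-13150400, plus strand: tgggcagaggcagcTTCCGGtgcacatgcc
FOS, chr14:75278788-75278817, plus strand: cgcttgtTATAAAagcagtggctgcggcgc
FOSB, chr19:45467956-45467985, plus strand: gtcccgggcaTATAAAtacaggctggcggg
FOSL2, chr2:28392818-28392847, plus strand: gggctggagaataaagagtgtgagttgaac
JUN, chr1:58784058-58784087, minus strand: gactggtagcagataagtgttgagctcggg
JUND, chr19:18281633-18281662, minus strand: cgagccgaggctataagagggcgcacaagt
EGR1, chr5:138465439-138465468, plus strand: gttccagacccttcaaatagaggcggatcc
In the 250 bases before the start 3 of the 8 promoters held TATAAA, among them FOS at -33 and FOSB at -30, beside 10.8% of 34943 promoters, counted on either strand. IER2 had no TATAAA in its 250 bases. It held TTCCGG at -26 and GGGCGG, the GC box, at 3 places, and 14.5% and 42.5% of all promoters held CCGGAA and GGGCGG. A match is a description of the letters, not of binding.

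EGR1 and JUND are printed over the full 250 bases, since EGR1 had the lowest ratio of the 10 genes with YAP siRNA and JUND was the most abundant. Capitals in EGR1 mark the CArG box, the SRF motif, on both strands, and capitals in JUND mark TGACNTCA, a form that includes the cAMP response element.
EGR1, chr5:138465229-138465478, plus strand: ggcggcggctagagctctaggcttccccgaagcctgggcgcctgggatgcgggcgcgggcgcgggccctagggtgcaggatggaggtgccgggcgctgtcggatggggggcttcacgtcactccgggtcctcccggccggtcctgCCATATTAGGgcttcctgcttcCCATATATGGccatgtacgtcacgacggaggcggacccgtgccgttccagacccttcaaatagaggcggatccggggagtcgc
JUND, chr19:18281623-18281872, minus strand: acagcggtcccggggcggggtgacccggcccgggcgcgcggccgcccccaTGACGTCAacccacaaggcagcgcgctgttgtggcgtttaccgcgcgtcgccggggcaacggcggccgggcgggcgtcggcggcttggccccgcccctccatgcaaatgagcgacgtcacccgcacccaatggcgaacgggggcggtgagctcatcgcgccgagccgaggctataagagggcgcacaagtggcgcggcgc
EGR1 alone among the 8 held CArG boxes in this window, at -105 and -83, and 1.16% of all promoters held at least 1. TGACNTCA was found in JUN at -67 and JUND at -200, beside 6.86% of all promoters. TGANTCA, the consensus AP-1 site and a shorter form than TGACNTCA, was in none of the 8 windows, beside 6.59% of all promoters. GGAATG, the TEAD core, was in none either, beside 11.9%. At these shares, absence from 8 promoters does not set them apart from other promoters. The 8 windows held 62% to 74.8% GC, beside a median of 58% for all promoters.

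Levels could not be compared between these genes from the deposited FPKM directly. The gene length behind each FPKM was recovered from the deposited counts. Among 12593 genes with at least 50 counts in a library, it was within 1% of the summed lengths of all distinct annotated exons in 87.0%, and within 1% of the union of those exons in 10.1%. Exons that overlap between transcripts are therefore counted more than once, and genes with many transcript forms have FPKM values that are too low. The length used was 2.97 times the union for FOSB (16506 against 5553 bases), 2.81 times for FOS, 2.73 times for FOSL1, 2.05 times for IER2 and 1.91 times for IER3. JUN, JUNB and EGR1 each have 1 annotated transcript, and their lengths were the same both ways. Ratios between libraries are not touched by this except through the pseudocount and the filter. Where levels of the 10 genes are compared below, they are given per union exon length, computed from the deposited counts, and called union FPKM. Elsewhere FPKM means the deposited value unless union length is stated, and it does not serve to compare genes.

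**Figure D1:**
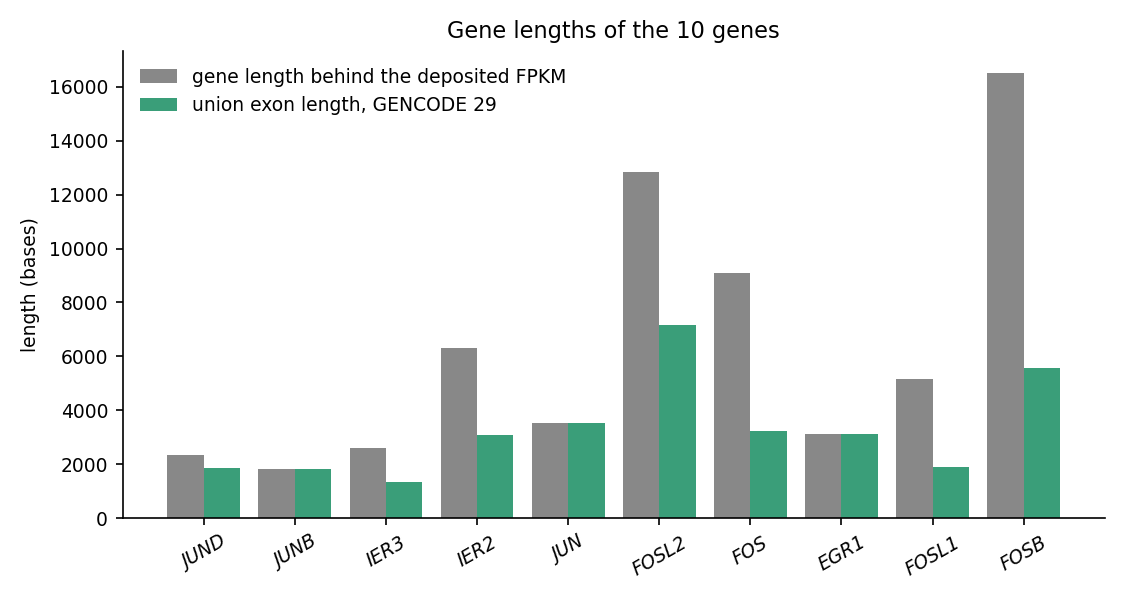
Gene length in bases behind the deposited FPKM (grey bars) beside the union exon length (green bars) for the 10 genes. The bars are equal for JUN, JUNB and EGR1, and FOSB has the largest gap, 16506 against 5553 bases.

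JUN family mRNAs made up most of the summed FOS and JUN family message, in which other AP-1 partner genes were not counted. JUND, the JUN protein that is present in most resting cells, stood at 199 union FPKM with control siRNA, 178 with IRF3 siRNA and 196 with YAP siRNA. JUNB, a JUN protein often induced by growth factors, followed at 102, 101 and 98.5. JUN itself, the strongest activator of the family, was far lower, at 20.4, 13.7 and 18.7. Of the FOS family only FOSL2, which encodes FRA-2, passed 5 union FPKM, at 10.9, 8.78 and 8.65. FOS, the founding and most transient member, stood at 3.90, 3.91 and 4.55. FOSB and FOSL1 (FRA-1) were below 1 in every library. Summed levels of the 3 JUN genes were 20.6, 20.7 and 21.3 times those of the 4 FOS genes in the control, IRF3 siRNA and YAP siRNA libraries. For the 4 FOS genes the union is longer than the longest annotated transcript (3238 against 2158 bases for FOS). For the 3 JUN genes both lengths are equal, so these ratios may run high. Which transcripts were present was not tested.

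Outside AP-1, IER3, a stress-induced gene that modulates survival and ERK signalling, stood at 54.7, 57.9 and 59.2 union FPKM. IER2, which encodes a nuclear protein, was at 14.4, 14.2 and 50.3. EGR1 was at 2.17, 1.68 and 1.06. In the control library the order from the top was JUND, JUNB, IER3, JUN, IER2, FOSL2, FOS, EGR1, FOSB and FOSL1. Exact Poisson intervals of the counts did not overlap between neighbours in this order, apart from FOSB and FOSL1. They cover counting error only. With YAP siRNA IER2 moved past JUN to the fourth place, close under IER3. With IRF3 siRNA IER2 and JUN were neighbours whose intervals overlapped (14.2 and 13.7). EGR1, FOSL1 and FOSB could not be fully ordered in either siRNA library, since the intervals of neighbours overlapped there too. On the deposited scale EGR1 stood above FOS in the control and IRF3 siRNA libraries, and per union length FOS stood above EGR1 in all 3.

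**Figure D2:**
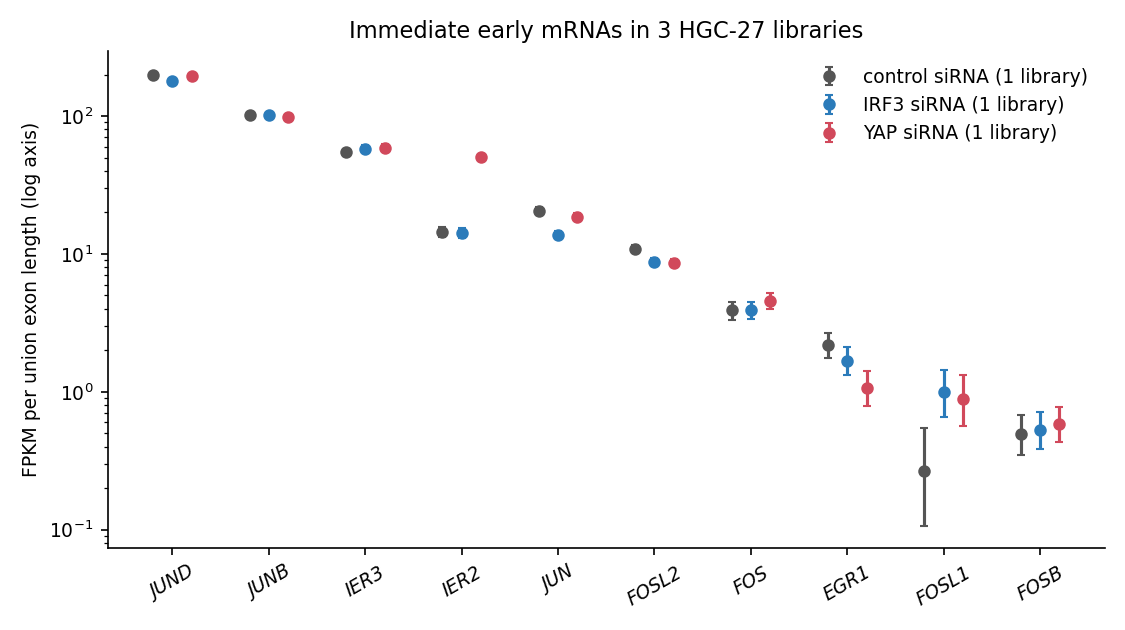
Union FPKM of the 10 genes (log axis) in the control, IRF3 siRNA and YAP siRNA libraries, 1 point per library with its 95% Poisson counting interval. IER2 stands at 14.4 and 14.2 in the control and IRF3 siRNA libraries and at 50.3 with YAP siRNA, while JUND and JUNB keep the top places in each.

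Ratios between libraries were taken as log2 of deposited FPKM plus 1, over the 11103 genes with a mean of at least 1 FPKM. Of the 10 genes 8 passed this filter. FOS (mean 1.47 FPKM) and EGR1 (1.64) were nearest above it, and FOSL1 (0.262) and FOSB (0.180) lay under it. A gene was called higher or lower at 2-fold on this scale. Beside each log2 ratio stands the ratio of depth-scaled counts with its 95% exact binomial interval, which carries no pseudocount and covers counting error only.

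With YAP siRNA against control 1 of the 8 genes was called higher and 0 lower, beside 0.351% and 0.468% of all 11103 genes. The gene was IER2 (ENSG00000160888, chromosome 19, 13150415 to 13154908, hg38, plus strand), the one for which the set was chosen, and nothing is read from that count. IER2 had 617, 653 and 2222 counts and 7.01, 6.93 and 24.5 deposited FPKM in the control, IRF3 siRNA and YAP siRNA libraries. Only the YAP siRNA library stood apart. The ratio to control there was 3.49 (3.19 to 3.82), a log2 ratio of 1.67, which ranks IER2 as number 8 from the top of all genes kept. The median log2 ratio of the 8 genes was -0.03, beside -0.02 for all genes kept, with 3 ratios above 0 and 5 below.

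**Figure D3:**
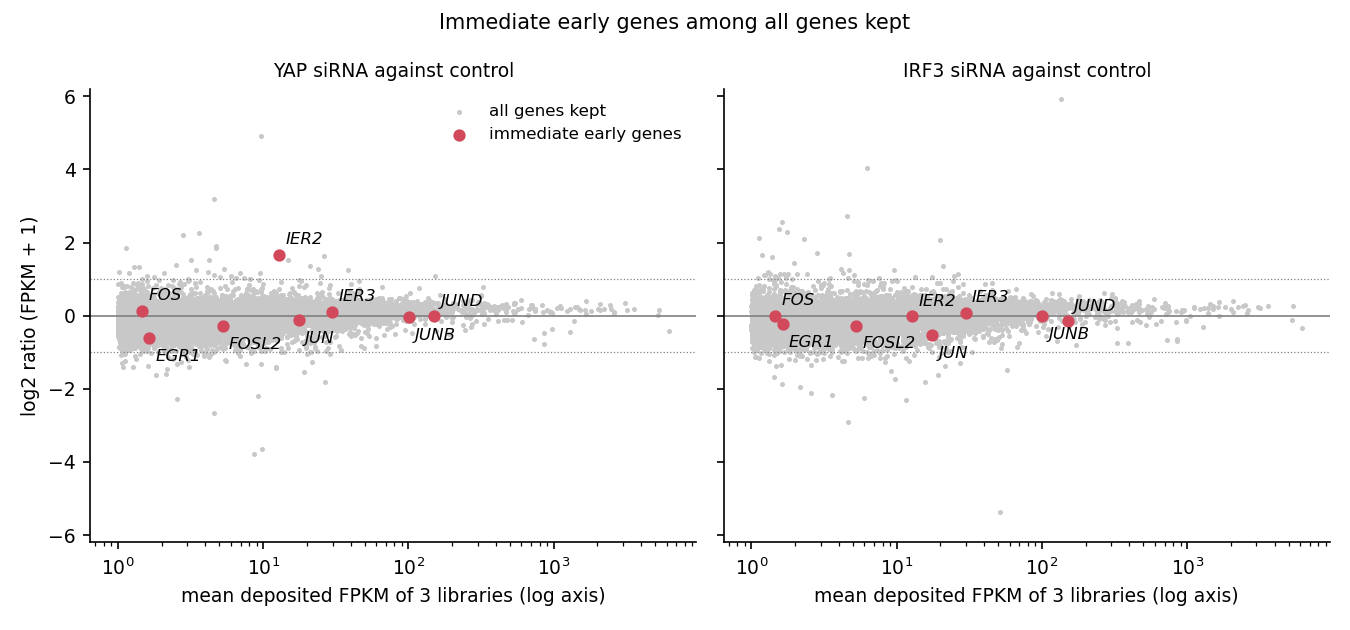
Log2 ratio of FPKM plus 1 against control (vertical axis) by mean deposited FPKM (log axis) for all genes kept (grey) and the 8 immediate early genes that passed the filter (red), with dotted lines at 2-fold. IER2 lies at 1.67 with YAP siRNA and at -0.02 with IRF3 siRNA, and the other 7 genes lie within the dotted lines in both panels.

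EGR1 (ENSG00000120738, chromosome 5, 138465490 to 138469315) had the lowest ratio of the set in the same library. Its counts were 95 with control siRNA, 79 with IRF3 siRNA and 48 with YAP siRNA. Its deposited FPKM were 2.17, 1.68 and 1.06. The YAP siRNA library was the lowest of the 3. The log2 ratio with YAP siRNA was -0.62, short of 2-fold on the FPKM plus 1 scale, but the count ratio was 0.490 (0.339 to 0.700), past 2-fold. By count ratio 2 of the 8 genes, IER2 and EGR1, were past 2-fold in either direction, beside 3.80% of all genes kept. Nothing is read from this count, since the set was chosen for IER2. The interval of EGR1 with YAP siRNA reached to both sides of 2-fold. With IRF3 siRNA the count ratio of EGR1 was 0.776 (0.569 to 1.06), an interval that includes 1.

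FOSL2, FOS, JUNB, JUND and IER3 had count ratios within 2-fold of control with YAP siRNA. FOSL2 (chromosome 2, 28392448 to 28417312) had 1092 counts with control siRNA, 939 with IRF3 siRNA and 891 with YAP siRNA. Both siRNA libraries were below the control, with count ratios of 0.791 (0.723 to 0.865) with YAP siRNA and 0.803 (0.735 to 0.877) with IRF3 siRNA. FOS (chromosome 14, 75278774 to 75282230) had 176, 189 and 212 counts and a ratio of 1.17 (0.952 to 1.43) with YAP siRNA. JUNB (chromosome 19, 12791496 to 12793315) had 2581, 2755 and 2578 counts and a ratio of 0.969 (0.917 to 1.02). It shares 259 exon bases with HOOK2 on the opposite strand. JUND (chromosome 19, 18279760 to 18281622) had 5165, 4968 and 5255 counts and a ratio of 0.987 (0.949 to 1.03). IER3 (chromosome 6, 30743199 to 30744554) had 1034, 1173 and 1154 counts and a ratio of 1.08 (0.994 to 1.18). The log2 ratios of IER3, JUNB and JUND, each close to 0 on the main scale, changed sign between scalings. In all, counting intervals excluded 1 for 4 of the 8 genes with YAP siRNA (IER2, EGR1, FOSL2 and JUN), beside 52.4% of all genes kept, so an interval that excludes 1 is common in this comparison.

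FOSL1 (ENSG00000175592, chromosome 11, 65892049 to 65900573), a FOS gene tied to invasive growth, lay under the filter and had few counts. It had 7 counts with control siRNA, 28 with IRF3 siRNA and 24 with YAP siRNA. Both siRNA libraries were above the control, with count ratios of 3.73 (1.59 to 10.1) and 3.32 (1.39 to 9.14) in that order. Its log2 ratios on the FPKM plus 1 scale were 0.31 and 0.27, because the deposited levels were 0.0974, 0.364 and 0.324 FPKM. Both ratios rest on the same 7 control counts. FOSB (chromosome 19, 45467995 to 45475179) had 38, 44 and 47 counts, and its interval with YAP siRNA (0.765 to 1.89) included 1.

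With IRF3 siRNA against control 0 of the 8 genes were called higher and 0 lower, beside 0.387% and 0.612% of all genes kept. The median log2 ratio was -0.08, beside -0.03 for all genes, with 2 ratios above 0 and 6 below. JUN (ENSG00000177606, chromosome 1, 58780788 to 58784327) was the lowest. It had 1009 counts with control siRNA, 727 with IRF3 siRNA and 951 with YAP siRNA. Here the IRF3 siRNA library stood apart and the other libraries were close. The count ratio was 0.673 (0.611 to 0.741) with IRF3 siRNA and 0.914 (0.836 to 0.99956) with YAP siRNA, and the log2 ratios were -0.54 and -0.12. JUND had a count ratio of 0.898 (0.864 to 0.934) with IRF3 siRNA. Intervals excluded 1 for 3 of the 8 genes, JUN, JUND and FOSL2, beside 56.9% of all genes. By count ratio 0 of the 8 were past 2-fold in either direction, beside 4.08% of all genes. IER2 had a ratio of 0.988 (0.884 to 1.10), an interval that includes 1. It covers counting error only and sets no bound on a difference between the conditions. Both comparisons share the control library.

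**Figure D4:**
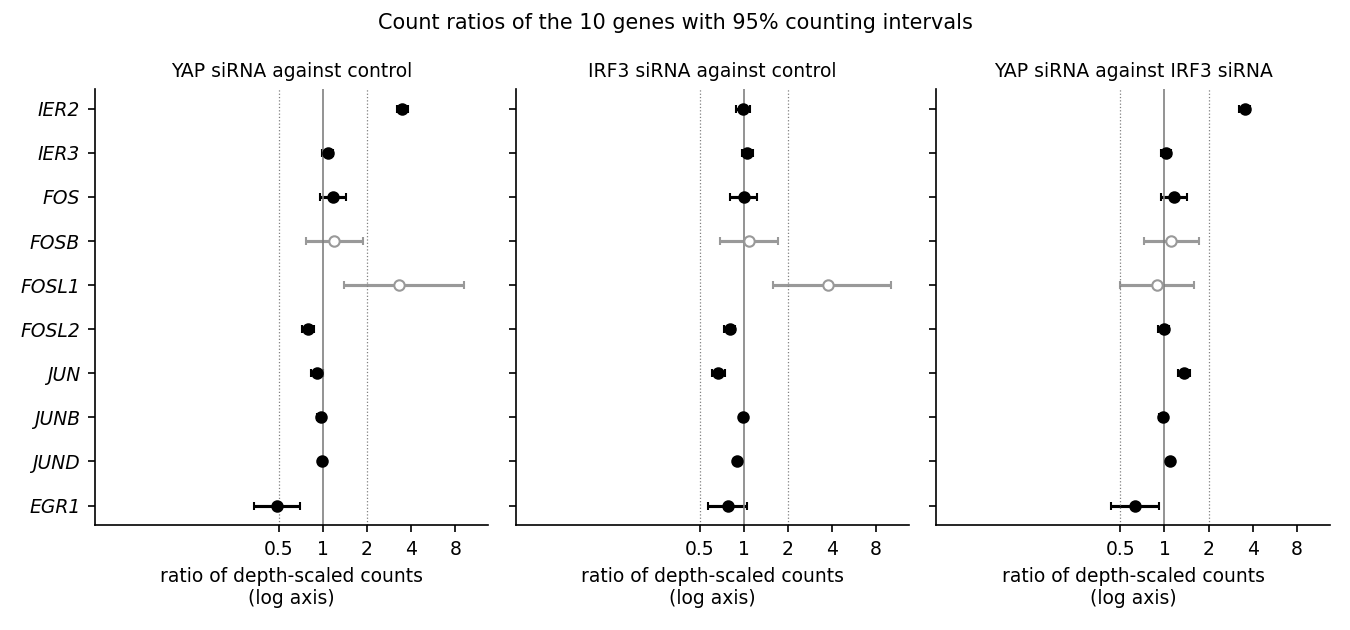
Ratio of depth-scaled counts (log axis) with its 95% exact binomial counting interval for the 10 genes in the 3 comparisons, with dotted lines at 2-fold and open grey points for FOSB and FOSL1, which lie under the filter. IER2 stands at 3.49 and 3.53 in the comparisons with YAP siRNA, EGR1 is the lowest point with YAP siRNA against control, and JUN is the lowest with IRF3 siRNA.

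The comparison of YAP siRNA with IRF3 siRNA leaves out the control library. Of the 8 genes 1, IER2, was called higher and 0 lower, beside 0.315% and 0.297% of all genes kept. The ratio of IER2 was 3.53 (3.24 to 3.86), a log2 ratio of 1.68. JUN was higher with YAP siRNA by a count ratio of 1.36 (1.23 to 1.498) and JUND by 1.10 (1.06 to 1.14). EGR1 was lower, at 0.631 (0.431 to 0.915). Intervals excluded 1 for these 4 genes, beside 31.6% of all genes. By count ratio IER2 was the single gene of the 8 past 2-fold in either direction, beside 1.76% of all genes. The set was chosen with this contrast of IER2 too, so nothing is read from either count. FOSL2 (0.986, 0.898 to 1.08) and FOSL1 (0.890, 0.494 to 1.59) had intervals that included 1 here. The median log2 ratio was 0.08, beside 0.01 for all genes kept.

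The genes upstream of IER2 on chromosome 19 had smaller ratios than IER2 with YAP siRNA. STX10, a syntaxin gene of membrane traffic, starts 32 bases from IER2 on the opposite strand, so both genes read away from the promoter printed above. STX10 had 1361 counts with control siRNA, 1829 with IRF3 siRNA and 1593 with YAP siRNA. Its count ratio with YAP siRNA was 1.13 (1.06 to 1.22), against 3.49 for IER2. NACC1 and TRMT1, the next genes upstream, had ratios of 1.04 (0.999 to 1.08) and 1.08 (0.995 to 1.17). An antisense RNA, CTC-250I14.6, overlaps IER2 over 946 exon bases and had 2, 3 and 7 counts. That is 0.324, 0.459 and 0.315 counts for each 100 IER2 counts, in every library under 1. Its own count ratio with YAP siRNA was 3.39 (0.646 to 33.5), an interval too wide to tell it from that of IER2 or from 1. Whether counting used strand is not stated in the labels. These neighbours were chosen after their values were seen.

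Genes with a pattern like IER2 were sought by distance in the plane of the log2 ratios to control, over 3 libraries and 5040 genes of at least 5 FPKM. The nearest 5 were DANCR, UBB, UBE2D2, TEN1 and MRPS16. DANCR, a long noncoding RNA, stood at 25.6, 26.1 and 62.7 FPKM (control, IRF3 siRNA, YAP siRNA; distance 0.41). UBB, a polyubiquitin gene, stood at 107, 122 and 229 FPKM (distance 0.61). UBE2D2, a ubiquitin-conjugating enzyme, stood at 13.6, 13.5 and 27.3 FPKM (distance 0.71) and is the single one of the 5 that shares no exon sequence with another counted gene. TEN1 (0.73) and MRPS16 (0.76) had log2 ratios of 0.61 and 0.63 with IRF3 siRNA, where IER2 had -0.02. Of 14 such genes at or past a log2 ratio of 1 with YAP siRNA, 2 had a ratio within 0.25 of 0 with IRF3 siRNA, DANCR and UBB, and 12 had one of at least 0.5 in either direction. With only 3 libraries such likeness is a description.

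Other immediate early genes had ratios within 2-fold on the FPKM plus 1 scale. Of 41 listed genes 33 were measured, and 0 passed 2-fold in either direction in any of the 3 comparisons, beside 0.351% higher and 0.468% lower of all genes kept with YAP siRNA. At that background a count of 0 in a list of this size, or in any of the shorter lists that follow, does not set the list apart from other genes. Their median log2 ratio with YAP siRNA was -0.04, beside -0.02 for all genes, with 12 ratios above 0 and 21 below. With TMM-scaled CPM this median was 0.04, beside 0.06 for all genes kept. MYC, the growth regulator, stood at 33.4, 30.8 and 16.8 FPKM (control, IRF3 siRNA, YAP siRNA). The YAP siRNA library was the lowest, with a count ratio of 0.501 (0.476 to 0.528), a log2 ratio of -0.95. PLK2, a polo-like kinase, was low with IRF3 siRNA instead, at 21.2, 11.0 and 17.7 FPKM (ratios 0.522 and 0.838). KLF6, a zinc finger factor, stood at 1.48, 2.33 and 2.51 FPKM and MCL1, a survival factor of the BCL2 family, at 10.1, 14.05 and 14.3, so both siRNA libraries were above the control.

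Partner factors and upstream kinases were followed as well. Of 16 other AP-1 and partner bZIP genes 10 were measured and 0 passed 2-fold on the same scale and beside the same background, with a median of -0.10 with YAP siRNA and -0.08 with IRF3 siRNA. With a trend fitted on GC content, length and level removed, the YAP siRNA median was 0.02. MAFK, a small MAF protein, stood at 3.63, 3.56 and 5.62 FPKM, high only with YAP siRNA (count ratio 1.55, 1.35 to 1.78). ATF7, ATF2 and JDP2, which bind with JUN or repress AP-1, had ratios of 0.672, 0.574 and 0.799 with YAP siRNA and 0.663, 0.576 and 0.690 with IRF3 siRNA. Of 27 genes for SRF, its ternary complex partners and MAP kinases 19 were measured and 0 passed 2-fold, with medians of -0.06 and 0.04. With TMM-scaled CPM these medians were 0.01 and 0.16, beside 0.06 for all genes kept in each comparison. MAPK14 (p38 alpha) had a ratio of 0.656 with YAP siRNA and 0.815 with IRF3 siRNA. RPS6KA2 and RPS6KA1, kinases downstream of ERK, had 0.662 and 1.49 with YAP siRNA and 0.637 and 1.46 with IRF3 siRNA.

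Feedback, target and mRNA decay genes came last. Of 15 feedback phosphatases and SPRY/SPRED genes 7 were measured and 0 passed 2-fold on the FPKM plus 1 scale, beside 0.351% higher and 0.468% lower of all genes kept with YAP siRNA, with medians of -0.28 with YAP siRNA and -0.23 with IRF3 siRNA and 6 of 7 ratios below 0 in each. The YAP siRNA median was -0.13 with the trend removed and -0.10 over all 15 genes without the filter. For IRF3 siRNA these medians were -0.23 and -0.15. On the main scale all genes kept had medians of -0.02 with YAP siRNA and -0.03 with IRF3 siRNA. SPRY2, an inhibitor of receptor signalling, had a count ratio of 0.646 with YAP siRNA and 0.861 with IRF3 siRNA. DUSP16, SPRED1 and SPRED2 had 0.713, 0.699 and 0.782 with YAP siRNA and 0.689, 0.852 and 0.589 with IRF3 siRNA. Of 28 AP-1 and EGR1 target genes 16 were measured and 0 passed 2-fold, with medians of -0.00 and -0.09. With TMM-scaled CPM these medians were 0.08 and 0.01, beside 0.06 for all genes kept in each comparison. Cyclin D1 (CCND1) had ratios of 0.596 and 0.576, NAB2, the corepressor that EGR1 induces, 1.30 and 1.46, PDGFA 0.817 and 0.834, and HMOX1 1.17 and 1.06. All 10 genes for proteins that bind AU-rich or related elements were measured and 0 passed 2-fold on the FPKM plus 1 scale, with medians of -0.24 and -0.21 (-0.12 and -0.09 with the trend removed). By count ratio 1 of them, ZFP36L1, was past 2-fold with YAP siRNA, beside 3.80% of all genes kept. ZFP36L1, which marks short-lived mRNAs for decay, stood at 8.99, 5.89 and 4.26 FPKM, lowest with YAP siRNA (ratio 0.474, 0.432 to 0.519). Its relative ZFP36L2 had ratios of 0.633 and 0.575, and PUM2 0.593 and 0.554. The lists share ATF3, MAFF, DUSP1, DUSP2, PLAUR and ZFP36.

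**Figure D5:**
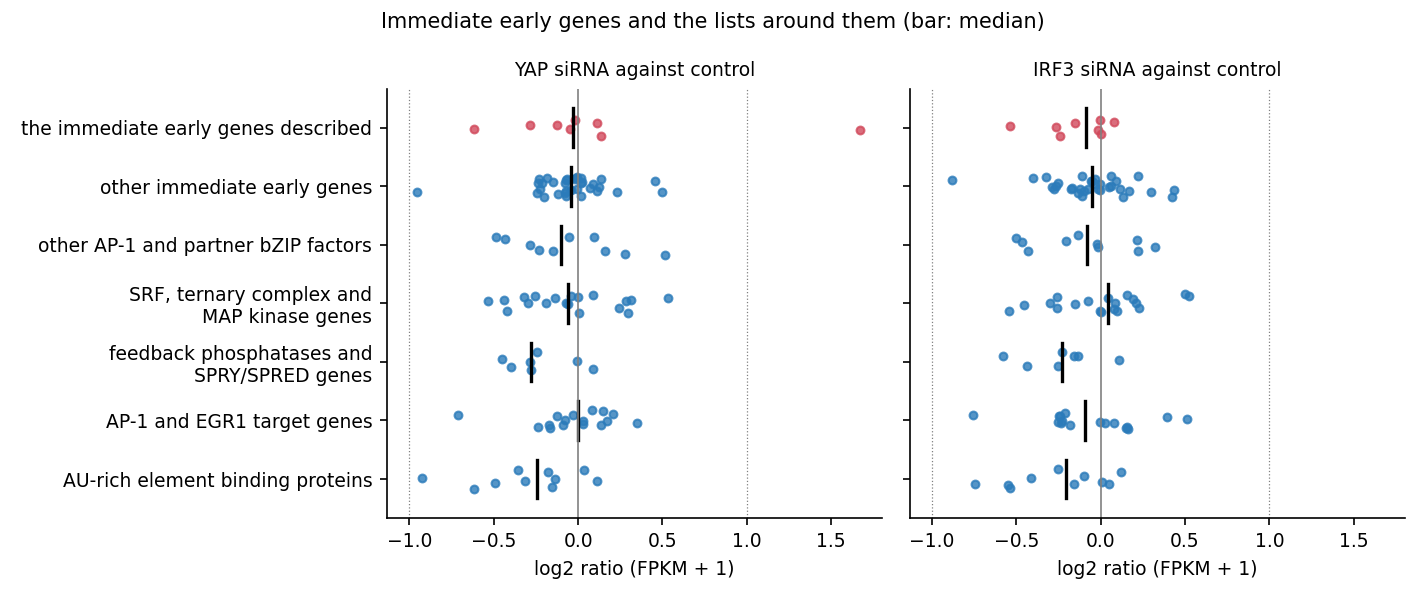
Log2 ratio of FPKM plus 1 against control for the 8 immediate early genes described (red) and for the lists around them (blue), 1 point per measured gene, with a black bar at each median. IER2 at 1.67 with YAP siRNA is the single point past the dotted 2-fold lines, and the 33 other immediate early genes lie between them in both panels.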

How the data were processed

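RNA was sequenced from 3 HGC-27 cultures, 1 library per condition. TopHat2 version 2.0.9 and build hg38 are named in the submitters' processing notes; counter, strand and annotation are not stated there. Per the file headers, the authors deposited raw counts and FPKM per gene. The FPKM of all 45223 nonzero values checked were within 1% of the count scaled by column total and one length per gene. Log2 ratios used FPKM plus 1, genes with a mean of at least 1 FPKM and a 2-fold size rule. Count ratios carry a 95% Clopper-Pearson interval, which covers counting error only, since each condition has 1 library. Reads that are PCR copies would make it too narrow even for that error. No test across samples is possible with 1 library per group.

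Union exon lengths, GC content of the longest transcript and exon overlaps came from GENCODE release 29 (10426 of the 11103 kept genes had identical loci), promoters from RefSeq. The members and lists were chosen with earlier results of these data known. Named were all members, YAP1 and IRF3, per list the genes past 2-fold or else the 4 with the largest YAP siRNA ratio in either direction, and the 5 genes nearest to IER2, leaving out clone-based symbols and small RNAs. STX10, NACC1, TRMT1, CTC-250I14.6 and the marker genes fall outside that rule. Some genes and a sequence that it covers are not reported here.

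The alternatives tried were 0.1 as pseudocount, a stricter filter (5 FPKM) or none, median centring, TMM-scaled CPM from edgeR plus 1, a 3-fold rule, summed counts of overlapping genes, and removal of a spline trend (4 degrees of freedom each) in level, length and GC content. Union-length FPKM and ratios without a pseudocount, with and without the filter, were added after seeing the data. The ratio rule was tested on counts simulated with Poisson error alone, so that test does not cover variation between cultures. The software was R 4.3.3 with edgeR 4.0.16, and Python 3.11.15 with patsy 1.0.2, scipy 1.17.1, matplotlib 3.10.9, pandas 2.3.3 and numpy 2.4.6.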

Additional observations from a re-analysis of the deposited data

How the results depend on the processing

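IER2 passed 2-fold with YAP siRNA against control and against IRF3 siRNA under every alternative run, the 3-fold rule included, with log2 ratios against control from 1.55 (trend removed) to 1.87 (TMM-scaled CPM). Without a pseudocount 2 members passed with YAP siRNA against control (EGR1 lower), and without pseudocount or filter 3 did (FOSL1 higher), while 1 passed with IRF3 siRNA (FOSL1, higher), where the main rule gave 0. Without pseudocount or filter 16.3% of 22171 genes with counts in both libraries passed with YAP siRNA and 17.0% of 22176 with IRF3 siRNA. The pseudocount and filter decide these calls. Removing the trend gave member medians of -0.18 with YAP siRNA and -0.22 with IRF3 siRNA, beside 0.01 for all genes in each. Log2 ratios with IRF3 siRNA were then -0.67 for JUN, -0.38 for JUND, -0.27 for JUNB, -0.18 for IER2 and -0.17 for IER3. With YAP siRNA they were -0.11 for IER3, -0.26 for JUNB and -0.18 for JUND. The trend removal put MYC past 2-fold with YAP siRNA, and a pseudocount of 0.1, union length or no pseudocount did so for ZFP36L1. With TMM-scaled CPM the list medians of the other immediate early genes, the SRF and MAP kinase genes and the AP-1 and EGR1 target genes were above 0 in both comparisons with control, where the median of all genes kept was 0.06 in each. Few counts limit FOSL1, FOSB and EGR1. No paired analysis was possible because each condition has 1 library and the labels give no replicate numbers.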

Other observations

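The way gene length entered the deposited FPKM reaches beyond the immediate early genes. Over 11072 genes kept with a union exon length, the length used was 1.48 times the union at the median, and at least 2 times in 18.98%. Among genes of at least 5 FPKM the base excision repair gene APEX1 (11119 against 1886 bases), the mitochondrial ribosomal gene MRPL55 (10309 against 1886) and the actin gene ACTG1 (14148 against 2993) had some of the largest gaps. Per union length ACTG1 had a mean of 650 FPKM where the deposited mean was 138, and the stress factor DDIT3 had 59.9 where it was 13.0. These genes were chosen after their values were seen. With union lengths 12052 genes reached a mean of 1 FPKM, of which 1029, 900 of them protein-coding, were under it on the deposited scale.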
